A study of Mus musculus with 24 samples.

Results

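Livers of mice that had eaten fast food were compared with livers of mice that had eaten a chimpanzee diet. The 12 arrays of these diets were taken by their labels from the 24 liver arrays of the series, 6 mice per diet with 1 array per mouse. Each diet had 3 mice in batch 1 and 3 in batch 2, the batches in which the RNA was processed. All were female mice of the strain labelled NMR-1, aged 8 weeks at the start and kept on the diet for 2 weeks. The fast food group ate only meals from a fast food restaurant, and the chimpanzee group ate vegetables, fruit and yogurt of the kind given to chimpanzees in captivity. Every group is defined by a whole menu, so that fat, sugar, protein and fiber varied together and no single nutrient can be told apart. The 6 mice on the food of a human cafeteria and the 6 on standard laboratory pellets served as further points of comparison. No mouse carried a gene alteration or received a drug.

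The liver turns the products of a meal into forms that other organs can use. Hepatocytes burn fatty acids in mitochondria and peroxisomes under the nuclear receptor PPARA, break down surplus amino acids and send the nitrogen to urea, and make cholesterol, bile acids and most plasma proteins. They also carry cytochromes P450, which oxidize drugs, steroids and plant compounds, and which respond to nuclear receptors such as CAR and PXR.

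Expression was given as log2 values between 1.90 and 13.01, so that a difference of 1 is a doubling of signal. A gene was called at an adjusted p under 0.05, in a limma fit that also held batch, adjusted by Benjamini-Hochberg over 13385 genes, and all adjusted p-values of genes below come from this fit. Differences are fast food minus chimpanzee diet and carry their standard error. Rose and fell mean higher and lower than in chimpanzee mice, and do not say which diet changed a gene. Signal near the lowest level of the arrays is compressed, so that differences of dim genes are understated. In whole liver, fewer cells of a type and less RNA per cell cannot be told apart.

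The arrays differed in signal range and in their control probe sets. The 90th percentile of each array averaged 6.30 ± 0.27 in fast food mice and 6.20 ± 0.32 in chimpanzee mice (SD, n = 6 each), with all 6 arrays of batch 2 below all 6 of batch 1. It was lowest in mouse 2 of the fast food group in batch 2 (5.85) and in mice 1 and 2 of the chimpanzee group in batch 2 (5.80 and 5.87). The difference between diets in this percentile was 0.10 (exact permutation within batches over 400 assignments, two-sided p = 0.205). The 3′ minus 5′ difference of the beta-actin control probe sets, which grows as RNA or its copies get shorter, was 0.80 ± 0.13 in fast food mice and 1.08 ± 0.15 in chimpanzee mice. Fast food arrays were lower in both batches (by 0.156 and 0.403 in the means), with p = 0.01 by the same exact test and 0.03 after adjustment over the 3 array measures. The pyruvate carboxylase controls gave 3.05 ± 0.48 against 3.54 ± 0.61 (exact p = 0.075, adjusted 0.112).

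**Figure D1:**
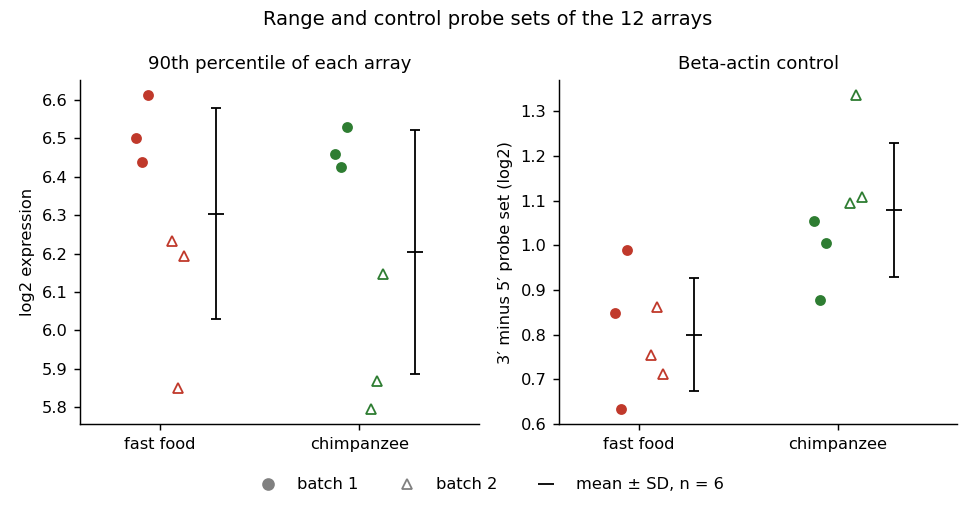
The 90th percentile of log2 expression (left) and the beta-actin 3′ minus 5′ log2 difference (right) of the 12 arrays, by diet, with filled circles for batch 1, open triangles for batch 2 and bars for mean ± SD over 6 mice. Batch 2 lay lower on the left, and fast food arrays averaged 0.80 against 1.08 in chimpanzee arrays on the right.

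Fast food livers differed from chimpanzee livers in 272 of 13385 genes (2.03%), of which 224 were higher (1.67%) and 48 lower (0.359%). For each of the 272 the batches gave the same direction. A call on the difference pooled over both batches favours such agreement, so it is no separate support. The called differences had sizes between 0.26 and 3.24, the median being 0.56. A difference of over 1 was found in 19 of the higher and 11 of the lower genes. The 2 sets of 6 mice did not overlap in 39 of the called genes and overlapped in 233. Over all genes tested, 56 lay wholly above (0.418%) and 12 wholly below (0.0897%) in fast food mice. An unadjusted p under 0.05 was reached by 2118 of the 13385 genes. Counts at that level in the lists below are to be read against this share. A batch-dependent difference had an unadjusted p under 0.05 in 12 of the called genes and passed adjustment in 0 of all genes, where 253 had an unadjusted p under 0.05.

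The number of calls depended on single arrays and on the beta-actin measure. It was 765 without mouse 2 of the fast food group in batch 2, 96 without its mouse 3 and 99 without its mouse 1. With the beta-actin difference as a covariate 5 genes were called, namely Apoa4, Cda, Cyp2b10, Iffo2 and Krt23 (Cda and Iffo2 are named here after their values were seen), while all 272 kept their sign, 227 had an unadjusted p under 0.05 and their median size was 0.488. Of 64 called genes described here, 11 moved by over 1.5 times with this covariate, all towards 0. Their differences were then 0.27 for Eci1, 0.62 for Id3, 0.36 for Mcee, 0.25 for Ndufs4, 0.33 for Psma1, 0.42 for Psmd14 and 0.87 for Rad51b. On the lower side they were -0.34 for Ang, -0.25 for Il6ra, -1.21 for Rgs16 and -0.23 for Rnase4. The share of higher genes, 82.4% of the calls, was 59.9% of 653 calls after cyclic loess and 61.4% of 567 after quantile normalization of the deposited values. Of these 64 genes, 28 kept their call without each of the 12 mice in turn and 36 lost it at least once, as given with the genes.

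Of 31 tested genes in a list of PPARA targets and fatty acid oxidation enzymes, 4 were called higher after fast food (12.9%, against 1.67% of all genes) and 0 lower. All 31 differences lay above 0, against 6958 of 13385 over all genes, and 27 were not called. Their median was 0.28, against 0.01 over all genes. Members of a list were measured on the same arrays, so counts above 0, here and below, are not independent. Cyp4a14, a P450 that hydroxylates the end of fatty acid chains and a classical PPARA target, had the largest difference of all called genes. It ran from 8.17 through a median of 9.74 to 10.39 in fast food mice, against 4.20, 6.57 and 7.54 in chimpanzee mice. No fast food mouse was as low as any chimpanzee mouse, and the chimpanzee mice of batch 2 were all below those of batch 1. The difference was 3.24 ± 0.41, a 9.42-fold higher signal (adjusted p = 0.00015), with 2.05 in batch 1 and 4.42 in batch 2.

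Ehhadh, a bifunctional enzyme of peroxisomal oxidation, had 9.41, 10.22 and 10.74 as lowest, median and highest value in fast food mice, against 8.81, 9.12 and 9.74 in chimpanzee mice. The groups met only through mouse 2 of the fast food group in batch 2, whose value was the lowest of its group, while the other 5 lay above every chimpanzee mouse. The difference was 1.00 ± 0.16 (adjusted p = 0.00156). Acot2, a mitochondrial thioesterase that releases fatty acids from coenzyme A, rose by 0.74 ± 0.16 (adjusted p = 0.0158). Eci1, an isomerase needed for unsaturated fatty acids, rose by 0.51 ± 0.12 (adjusted p = 0.0256). The call of Acot2 was lost without mouse 1 of the fast food group in batch 2 (adjusted p = 0.0554), and that of Eci1 without 3 of the 12 mice in turn (up to 0.0855). Fabp2, the intestinal form of fatty acid binding protein, was 1.01 ± 0.17 higher (adjusted p = 0.00349), and was picked after its value was seen. Hao2, a peroxisomal oxidase of hydroxy acids, had 9.31, 10.14 and 10.52 in fast food mice, against 8.24, 8.57 and 9.20 in chimpanzee mice. Its groups did not overlap (1.46 ± 0.19, adjusted p = 0.000167).

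**Figure D2:**
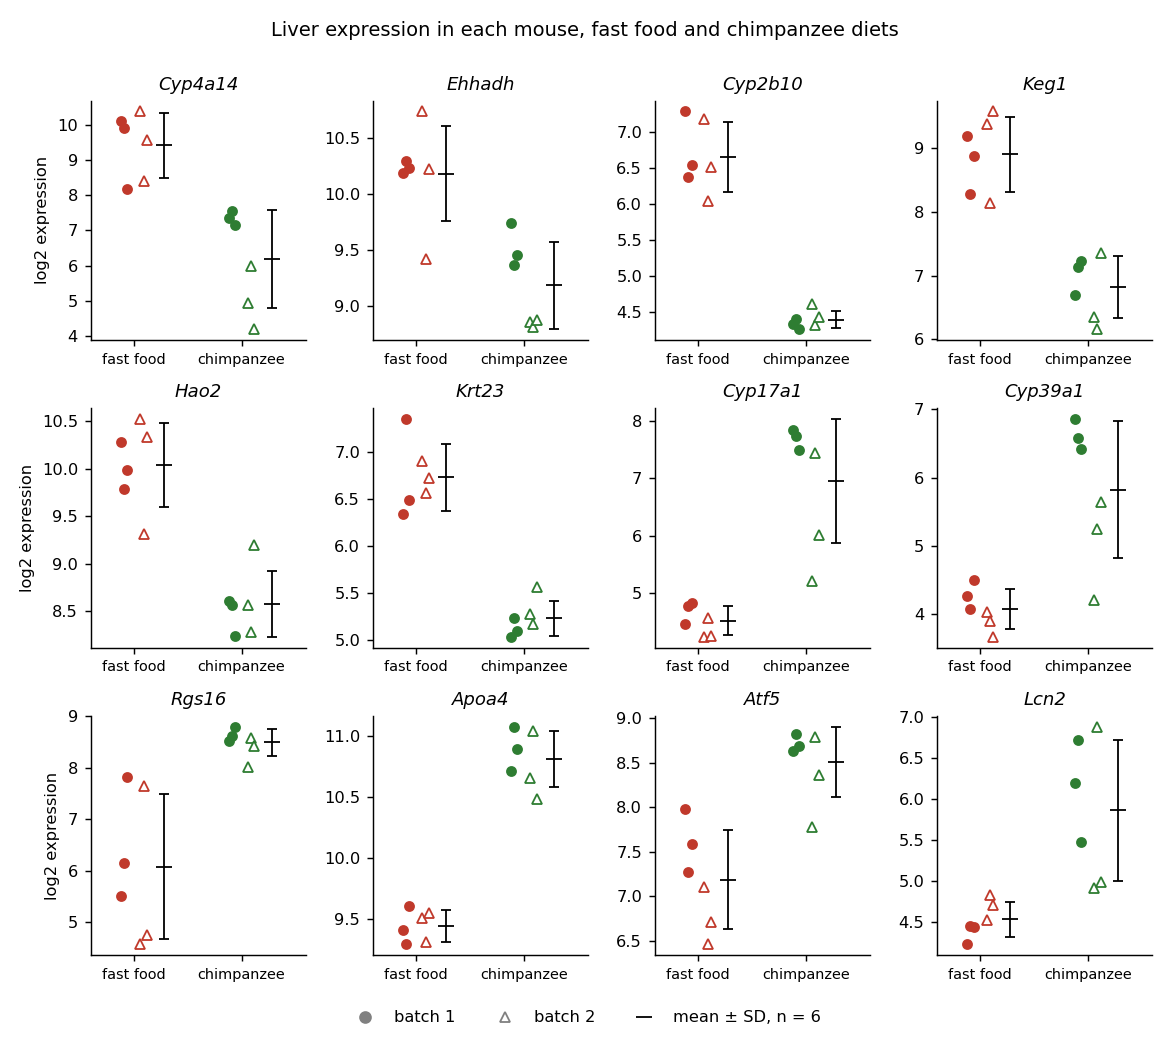
Log2 expression of 12 genes in each mouse, fast food left and chimpanzee diet right in each panel, with filled circles for batch 1, open triangles for batch 2 and bars for mean ± SD over 6 mice. Cyp4a14, Cyp2b10, Keg1, Hao2 and Krt23 lay higher in every fast food mouse and Cyp17a1, Rgs16, Apoa4 and Lcn2 lower in every one, while Ehhadh, Cyp39a1 and Atf5 overlapped.

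Among the cytochromes P450 of drug metabolism, 2 of 26 tested genes rose (7.69%, against 1.67% of all genes) and 0 fell, and both belong to the Cyp2b family. Cyp2b10, the standard target of the receptor CAR, had 6.04, 6.52 and 7.28 in fast food mice, against 4.27, 4.37 and 4.61 in chimpanzee mice. The chimpanzee mice lay within a narrow band, and the lowest fast food mouse was far above it. The difference was 2.25 ± 0.25, or 4.77-fold (adjusted p = 6.8e-05). Its 3 probe sets gave 2.25, 2.05 and 1.90, although 2 of them can also read transcripts of close relatives. Cyp2b13, a neighbour in sequence that is expressed in female liver, had 9.76, 10.21 and 10.29 against 8.97, 9.44 and 9.90. The groups overlapped, and the difference was 0.71 ± 0.16 (adjusted p = 0.0194), lost without any of 4 mice (up to 0.065). In the list of conjugation enzymes and NRF2 targets 0 of 32 were called and 9 had an unadjusted p under 0.05. Its leading member Gstm6, a glutathione transferase, differed by 0.64 ± 0.17 (adjusted p = 0.0514).

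Steroid and bile acid genes held some of the deepest decreases. Cyp17a1, a steroid hydroxylase of androgen synthesis that is also transcribed in mouse liver, had 4.23, 4.51 and 4.82 in fast food mice, against 5.21, 7.46 and 7.85 in chimpanzee mice. The fast food mice lay in a narrow band, and the chimpanzee mice were spread widely above them. The difference was -2.44 ± 0.48, a 5.44-fold lower signal (adjusted p = 0.00873). Cyp39a1, which hydroxylates oxysterols on a side path of bile acid synthesis, had 3.67, 4.06 and 4.51 against 4.21, 6.03 and 6.86. Only mouse 1 of the chimpanzee group in batch 2 reached into the fast food range, and the difference was -2.34 in batch 1 and -1.16 in batch 2 (-1.75 ± 0.29 in all, adjusted p = 0.00257). It was the only one of 19 tested bile acid genes to be called (5.26% lower, against 0.359% of all genes). Rdh9, a dehydrogenase of retinoids and steroids, fell by 0.86 ± 0.16 (adjusted p = 0.00556).

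The cholesterol synthesis list was not called in any of its 20 tested members, and 5 had an unadjusted p under 0.05. Its median difference was 0.30 over both batches, but 0.86 within batch 1 and -0.15 within batch 2. Dhcr7, the last step to cholesterol, differed by 1.38 in batch 1 and by 0.25 in batch 2 (0.82 ± 0.24 in all, adjusted p = 0.0733). Sc5d, the desaturase just before it, differed by 0.76 ± 0.22 (adjusted p = 0.0694). In batch 1 alone 9 of the 20 were called higher, and without mouse 2 of the fast food group in batch 2 there were 7. The median of this list thus differed in sign between the batches, while Dhcr7 and Sc5d (0.88 in batch 1 and 0.65 in batch 2) lay above 0 in both.

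Lpin1 and Apoa4 were the called genes of triglyceride and lipoprotein metabolism, and both fell. Apoa4, an apolipoprotein of triglyceride-rich particles, had 9.30, 9.46 and 9.61 in fast food mice, against 10.49, 10.80 and 11.08 in chimpanzee mice. Each group lay in a narrow band, with a clear gap between the highest fast food mouse and the lowest chimpanzee mouse. The difference was -1.36 ± 0.17 (adjusted p = 0.000133), and the gene's other probe set gave -1.52. The remaining 16 of 17 tested apolipoproteins and lipase regulators were not called, so that 5.88% of this list was lower, against 0.359% of all genes. Lpin1, a phosphatidate phosphatase that also acts with PPARA and PGC1A in the nucleus, had 5.51, 6.86 and 7.71 against 7.49, 8.74 and 9.29. The fast food mice were spread over more than 2 units and 2 of them exceeded the lowest chimpanzee mouse. The difference of -1.87 ± 0.43 (adjusted p = 0.0236) was lost without any of 6 mice (up to 0.0775). In the list of fatty acid and triglyceride synthesis Lpin1 was the only call of 26 (3.85% lower, against 0.359% of all genes). Of 16 lipid droplet genes 0 were called, with 6 at an unadjusted p under 0.05. G0s2, an inhibitor of the lipase ATGL and the leading one, differed by 0.89 ± 0.28 (adjusted p = 0.0952).

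**Figure D3:**
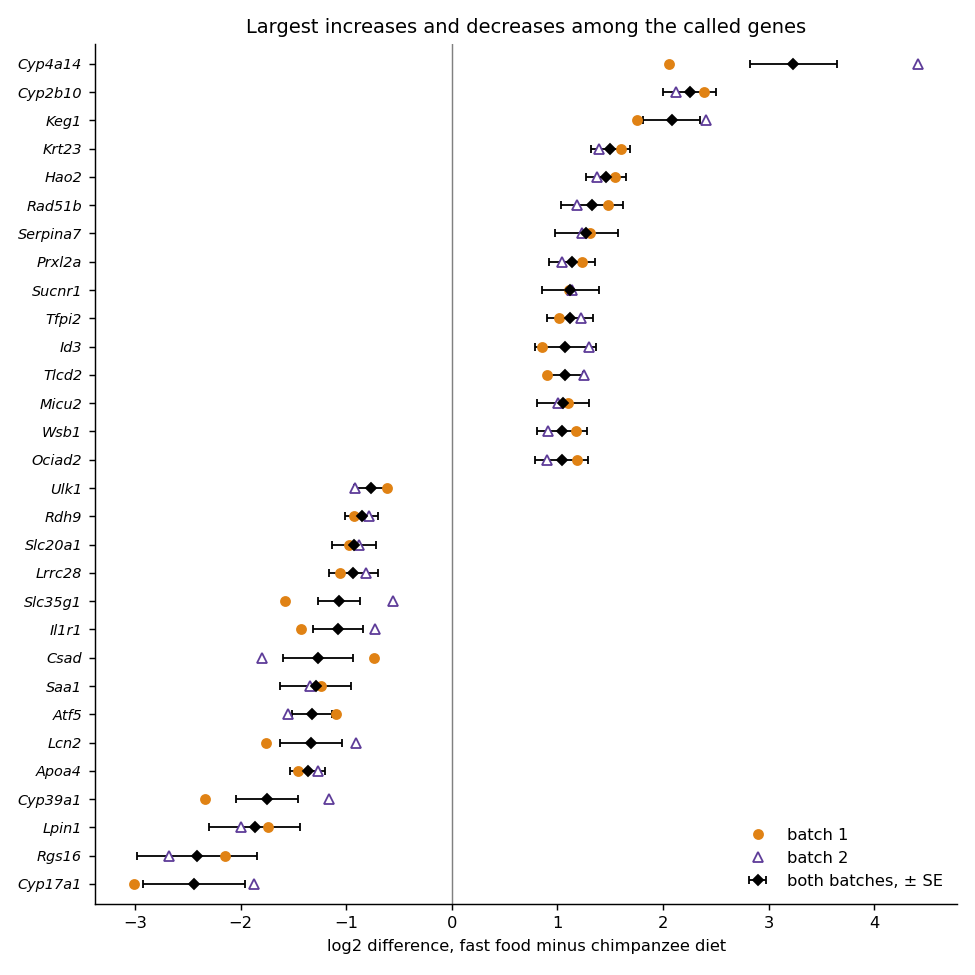
Log2 difference of fast food minus chimpanzee diet for the 15 largest increases and the 15 largest decreases among the called genes, as the value of the fit over both batches with its SE (diamonds) and within batch 1 (circles) and batch 2 (triangles). Both batches lay on the same side of 0 for each gene, as the choice of genes required. Cyp4a14 showed the widest gap between batches, 2.05 against 4.42.

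Of 60 tested genes of amino acid breakdown, 6 rose after fast food (10%, against 1.67% of all genes) and 1 fell (1.67%, against 0.359%). Of the 60 differences 53 lay above 0, and the median was 0.23 (0.14 in batch 1 and 0.30 in batch 2). The called members included Ivd and Mccc2, consecutive mitochondrial steps of leucine breakdown. Mccc2 had 7.20, 7.62 and 7.80 in fast food mice, against 6.42, 6.98 and 7.19 in chimpanzee mice. The groups lay next to each other without overlapping, and the difference was 0.69 ± 0.13 (adjusted p = 0.00685). Ivd had 8.31, 8.63 and 8.72, against 7.46, 7.97 and 8.34. A single fast food mouse, mouse 2 of batch 2, lay within the chimpanzee range (0.65 ± 0.09, adjusted p = 0.0005). Agxt, which turns glyoxylate into glycine, rose by 0.75 ± 0.15 (adjusted p = 0.0108). Mcee, an epimerase that carries the products of valine and isoleucine towards succinate, rose by 0.54 ± 0.12 (adjusted p = 0.022, lost without any of 4 mice). Abat and Aadat, aminotransferases for GABA and for aminoadipate and kynurenine, made up the rest. The member that fell was Csad, the decarboxylase that makes taurine, by 1.27 ± 0.33 (adjusted p = 0.0467), and this call was lost without any of 9 mice (up to 0.122).

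Among 19 genes of the response to amino acid shortage, only Atf5 was called, and it was lower (5.26%, against 0.359% of all genes). Atf5, a transcription factor induced by ATF4, had 6.46, 7.19 and 7.98 in fast food mice, against 7.78, 8.66 and 8.82 in chimpanzee mice. The groups met in 1 mouse each. The difference was -1.32 ± 0.19 (adjusted p = 0.000589). The methionine, serine and one-carbon list had 0 of 19 called and the aminoacyl-tRNA synthetases 0 of 18, with 4 of each at an unadjusted p under 0.05. Cbs, which passes homocysteine on to cysteine, differed by 0.45 ± 0.14 (adjusted p = 0.0943).

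Genes that remove misfolded proteins from the endoplasmic reticulum were lower where they were called. Of 32 chaperone and protein removal genes, 2 fell (6.25%, against 0.359% of all genes) and 0 rose, with a median of -0.13. Herpud1 and Syvn1 act in the same membrane complex, in which Syvn1 is the ubiquitin ligase. Both are known targets of the unfolded protein response, whose factors ATF6 and XBP1 read the ER stress element, CCAAT followed by 9 free bases and CCACG. Their promoters are shown because they are the members of this list that fell together. The sequences run from 250 bases before to 50 bases after the annotated start (RefSeq, GRCm38.p6), 5′ to 3′, with a match to the element on either strand in capitals.
Syvn1 promoter, chr19:6046326-6046625, plus strand: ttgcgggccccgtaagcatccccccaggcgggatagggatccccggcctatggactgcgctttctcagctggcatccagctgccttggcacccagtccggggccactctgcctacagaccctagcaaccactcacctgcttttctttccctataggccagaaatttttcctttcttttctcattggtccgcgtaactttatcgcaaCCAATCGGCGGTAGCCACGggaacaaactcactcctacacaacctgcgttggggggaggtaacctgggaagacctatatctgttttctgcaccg
Herpud1 promoter, chr8:94386179-94386478, plus strand: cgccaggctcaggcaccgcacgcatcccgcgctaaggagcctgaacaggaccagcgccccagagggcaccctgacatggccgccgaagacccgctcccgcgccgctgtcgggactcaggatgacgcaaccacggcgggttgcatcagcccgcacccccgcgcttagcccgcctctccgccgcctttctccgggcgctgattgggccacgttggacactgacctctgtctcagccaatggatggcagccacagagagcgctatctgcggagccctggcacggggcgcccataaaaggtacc
The Syvn1 window held 1 match, starting at base -44 relative to the start, and the Herpud1 window held none of this exact form. The printed Herpud1 window does hold a stretch that differs from the element only in its last base. Only this exact form of the element was searched, so other elements read by these factors are not covered. The element was found in 39 of 32851 promoter windows (0.119%).

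Herpud1 had 9.55, 9.96 and 10.46 in fast food mice, against 10.07, 10.61 and 10.97 in chimpanzee mice. Syvn1 had 5.42, 5.93 and 6.30, against 5.95, 6.18 and 7.54. Both pairs of groups overlapped, and the differences were -0.53 ± 0.13 for Herpud1 (adjusted p = 0.0352) and -0.58 ± 0.15 for Syvn1 (adjusted p = 0.0454). The other probe set of each gene gave -0.42 for Herpud1 and -0.39 for Syvn1, and neither was called. Syvn1 was highest in 2 chimpanzee mice of batch 1, and its difference was -0.82 in that batch and -0.34 in the other. Leaving out single mice ended the call of Herpud1 in 8 of 12 cases (up to 0.11) and of Syvn1 in 9 (up to 0.106). Bag3, a co-chaperone of HSP70, fell by 0.53 ± 0.14 (adjusted p = 0.0467, lost in 6 of 12). It was the only call among 13 cytosolic heat shock genes (7.69% lower, against 0.359% of all genes). Fkbp5, a co-chaperone of steroid receptors that glucocorticoids induce, fell by 0.66 ± 0.15 (adjusted p = 0.0194, lost in 2 of 12) and was picked after its value was seen.

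Of 31 tested proteasome subunits, 2 were called higher (6.45%, against 1.67% of all genes) and 29 were not called. All 31 differences lay above 0 (6958 of 13385 over all genes), with a median of 0.25. Psmd14, the deubiquitinase of the lid, rose by 0.77 ± 0.17 (adjusted p = 0.0198) and Psma1, a ring subunit of the core, by 0.57 ± 0.14 (adjusted p = 0.0301), each lost when single mice were left out (4 and 7 of 12). With the beta-actin covariate these differences were 0.42 and 0.33. Psmb9, a catalytic subunit of the immunoproteasome that interferon induces, had 5.97, 6.69 and 7.07 in fast food mice, against 5.10, 5.63 and 6.14 in chimpanzee mice. Only mouse 2 of the fast food group in batch 2 lay within the chimpanzee range, and the difference was 1.00 ± 0.19 (adjusted p = 0.00685). The interferon-induced genes beside it had 0 of 21 called and 3 at an unadjusted p under 0.05 (2118 of 13385 over all genes).

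Of 30 tested genes in the acute phase list, 4 fell and 0 rose (13.3% lower, against 0.359% of all genes), 6 differences lay above 0 and the median was -0.17. Lcn2, a carrier that withholds iron from bacteria, had 4.23, 4.49 and 4.84 in fast food mice, against 4.91, 5.84 and 6.89 in chimpanzee mice. The fast food mice all lay below the chimpanzee mice, which varied over almost 2 units. The difference was -1.33 ± 0.30 (adjusted p = 0.019), lost without any of 3 mice (up to 0.0541). Saa1, a serum amyloid protein, had 6.18, 6.79 and 7.15 against 7.10, 7.82 and 9.32, and its groups just overlapped. Its difference of -1.29 ± 0.34 (adjusted p = 0.0454) was lost without any of 8 mice, and its probe set can also read the related Saa2. The other 2 of the 4 were receptors of the cytokines that drive this response, with differences of -1.08 ± 0.24 for Il1r1 (adjusted p = 0.018) and -0.50 ± 0.13 for Il6ra (adjusted p = 0.0489, lost in 9 of 12). The call of Il1r1 was lost only without mouse 1 of the fast food group in batch 2 (0.0602). In the complement and coagulation list 0 of 30 were called, with 4 at an unadjusted p under 0.05 (2118 of 13385 over all genes).

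Of 53 respiratory chain subunits, 2 rose (3.77%, against 1.67% of all genes), 0 fell and 50 differences lay above 0, with a median of 0.14. Both called subunits belong to complex I, Ndufb3 at 0.56 ± 0.12 (adjusted p = 0.0162) and Ndufs4 at 0.42 ± 0.10 (adjusted p = 0.0236). The other probe sets of Ndufs4, which were dim, gave 0.06 and 0.24 and were not called. Single mice decided both calls, 2 of 12 for Ndufb3 and 4 for Ndufs4. Micu2, a gate of the mitochondrial calcium channel, rose by 1.05 ± 0.25 (adjusted p = 0.0244, lost in 7 of 12), and Atpif1, the inhibitor of ATP synthase, by 0.84 ± 0.17 (adjusted p = 0.0108, picked after its value was seen).

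Sugar metabolism had calls on both sides. Of 20 tested genes of glucose and fructose uptake and glycolysis, 1 rose (5%, against 1.67% of all genes) and 2 fell (10%, against 0.359%). Khk, the fructokinase that starts fructose breakdown, had 9.53, 9.65 and 10.16 in fast food mice, against 9.86, 10.25 and 10.47 in chimpanzee mice. The groups overlapped through the highest fast food mouse, and Khk fell by 0.51 ± 0.12 (adjusted p = 0.0259, lost in 6 of 12). Aldoa, an aldolase of glycolysis, fell by 0.35 ± 0.09 (adjusted p = 0.0467, lost in 11 of 12). Its other probe sets gave -0.32, -0.28, -0.19 and -0.14, and none of them was called. Slc2a1, the glucose transporter of most tissues other than hepatocytes, was dim and rose by 0.59 ± 0.14 (adjusted p = 0.022, lost in 4 of 12), but its other probe sets gave 0.19 and -0.06. Of 18 genes of gluconeogenesis and its control, Lpin1 and Hnf4a fell (11.1%, against 0.359% of all genes). Hnf4a, the central transcription factor of hepatocytes, had 9.34, 9.43 and 10.02 against 9.79, 9.93 and 10.24 (-0.44 ± 0.11, adjusted p = 0.0318, lost in 7 of 12). Its other probe sets gave -0.54, -0.29 and -0.21, of which only the first was called. Glycogen genes had 0 of 15 called with 4 at an unadjusted p under 0.05, and Ppp1r3c, a glycogen targeting subunit of protein phosphatase, differed by 1.17 ± 0.35 (adjusted p = 0.0791).

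The genes Id1 and Id3, inhibitors of helix-loop-helix factors and standard targets of BMP signalling, rose. Id1 had 5.36, 6.02 and 6.70 in fast food mice, against 4.53, 5.03 and 5.43 in chimpanzee mice. Only 1 fast food mouse lay within the chimpanzee range, and the difference was 1.01 ± 0.20 (adjusted p = 0.00956). Id3 rose by 1.07 ± 0.29 (adjusted p = 0.0494), a call lost without any of 10 mice (up to 0.126). They were the only calls among 16 genes of BMP signalling and iron control (12.5% higher, against 1.67% of all genes). The clock list had 0 of 21 called and 2 at an unadjusted p under 0.05, and the list of insulin signalling and the growth hormone axis 0 of 23 and 2. The largest difference in that list was Mup10, a urinary protein gene driven by growth hormone, at -1.48 ± 0.47 (adjusted p = 0.0972). Of 19 genes of DNA replication and division, 1 was called higher (5.26%, against 1.67% of all genes). This was Mcm2, a subunit of the replicative helicase, at 0.43 ± 0.11 (adjusted p = 0.0306, lost in 7 of 12). Its mean of 3.41 in fast food mice and 2.98 in chimpanzee mice is close to the filter level of 3.147.

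Other large increases lay outside these pathways. Keg1, an acyltransferase-like gene first described in kidney, had 8.14, 9.03 and 9.58 in fast food mice, against 6.16, 6.92 and 7.35 in chimpanzee mice. Krt23, an epithelial keratin, had 6.34, 6.64 and 7.35 against 5.03, 5.20 and 5.56. Neither gene had any overlap between diets, and the differences were 2.08 ± 0.27 for Keg1 (adjusted p = 0.000153) and 1.50 ± 0.19 for Krt23 (adjusted p = 0.000133). Krt8, the main keratin of hepatocytes, rose by 0.83 ± 0.16 (adjusted p = 0.00897), and was picked after its value was seen. Prxl2a, a peroxiredoxin-like protein, rose by 1.14 ± 0.22 (adjusted p = 0.00685), Tfpi2, an inhibitor of serine proteases, by 1.12 ± 0.21 (adjusted p = 0.00764), and Tlcd2, a membrane protein, by 1.07 ± 0.17 (adjusted p = 0.00133). These were called without each of the 12 mice. Aqp8, a water channel of the bile canaliculus, was 1.00 ± 0.20 higher (adjusted p = 0.00897, picked after its value was seen).

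Several of the larger increases were less secure. Rad51b, a recombination protein, had 3.76, 5.52 and 5.84 in fast food mice, against 3.25, 4.10 and 4.44 in chimpanzee mice. Its lowest fast food value was mouse 2 of batch 2, and the other 5 lay above all chimpanzee mice (1.33 ± 0.29, adjusted p = 0.0186, lost in 3 of 12). Serpina7, which encodes thyroxine-binding globulin, averaged 3.95 in fast food mice, against 2.67 in chimpanzee mice, a mean under the filter level. Its difference was 1.27 ± 0.30 (adjusted p = 0.0248, lost in 5 of 12). Sucnr1, the receptor of succinate (1.12 ± 0.27, adjusted p = 0.0309), Wsb1, an adaptor of a ubiquitin ligase (1.04 ± 0.24, adjusted p = 0.0219), and Ociad2 (1.04 ± 0.25, adjusted p = 0.0306) lost their calls in 8, 5 and 7 of the 12 cases.

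Rgs16 was the other gene with a difference beyond 2 in the lower direction. Rgs16, which shuts off G protein signals and follows feeding in mouse liver, had 4.57, 5.83 and 7.82 in fast food mice, against 8.01, 8.54 and 8.79 in chimpanzee mice. The chimpanzee mice formed a narrow band above every fast food mouse, and the fast food mice spread over more than 3 units. The difference was -2.41 ± 0.57 (adjusted p = 0.0256), lost without any of 7 mice (up to 0.0855), and its other probe sets gave -1.91 and -1.30. With the beta-actin covariate the difference of Rgs16 was -1.21 ± 0.70 (unadjusted p = 0.0959). Lower were also Ulk1, a kinase that starts autophagy (-0.77 ± 0.16, adjusted p = 0.0109), Slc20a1, a phosphate transporter (-0.93 ± 0.21, adjusted p = 0.0195), Slc35g1 (-1.07 ± 0.20, adjusted p = 0.00556) and Lrrc28 (-0.93 ± 0.23, adjusted p = 0.0318). Slc20a1 lost its call without mouse 2 of the chimpanzee group in batch 1 (0.0548), and Lrrc28 in 8 of 12 cases. Gulo, the last step of vitamin C synthesis in mice, had 8.84, 9.44 and 9.72 in fast food mice, against 9.54, 10.18 and 10.29 in chimpanzee mice, and was picked after its value was seen. It fell by 0.69 ± 0.11 (adjusted p = 0.00133).

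**Figure D4:**
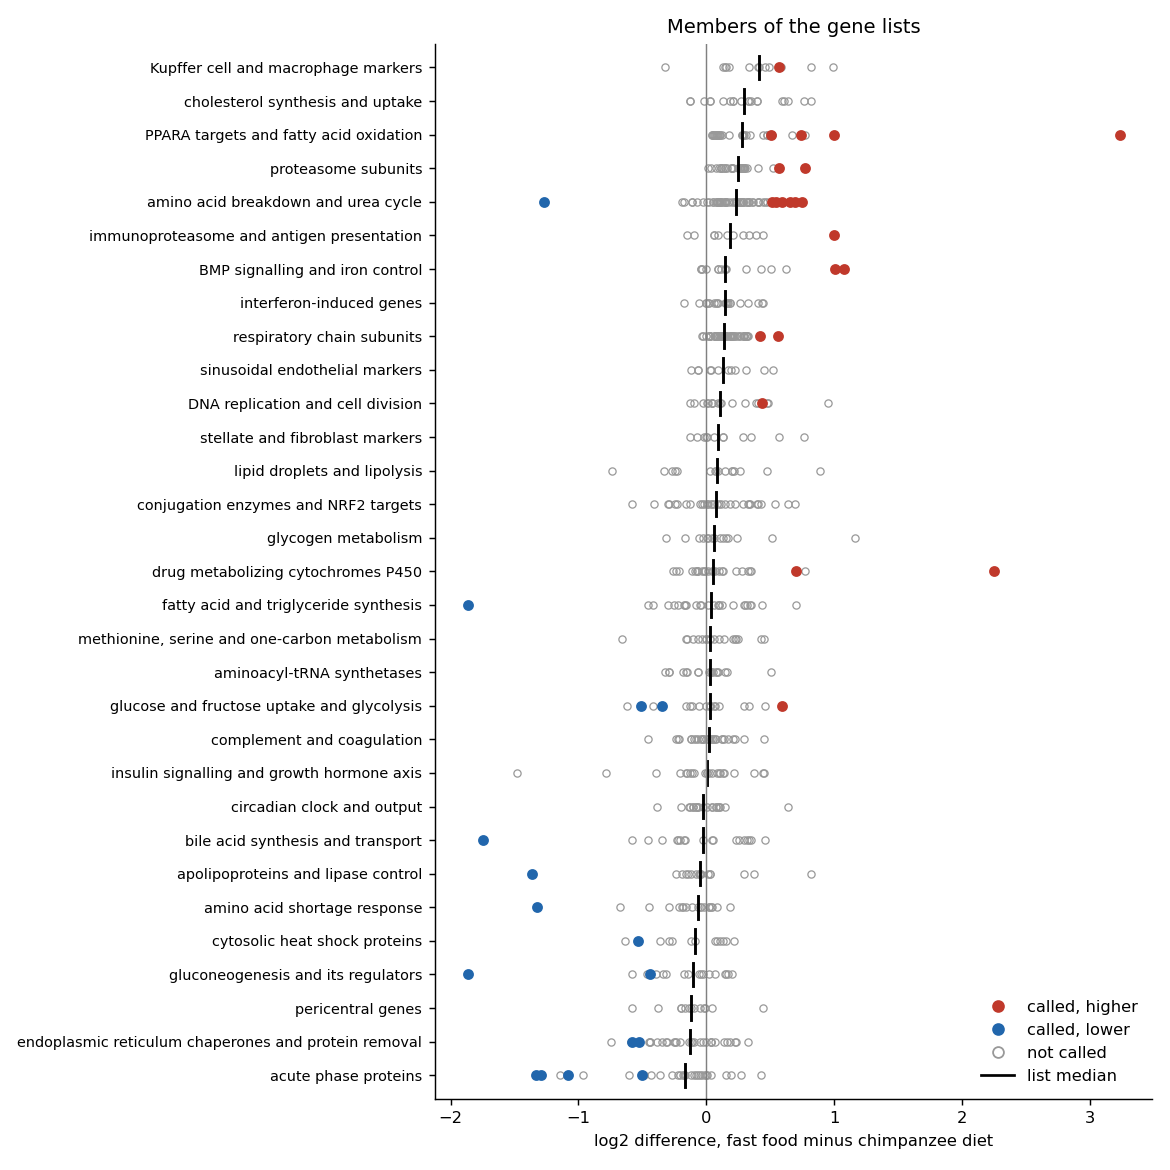
Log2 difference of fast food minus chimpanzee diet for every tested member of the gene lists with at least 12 tested members, with filled points for called genes (red higher, blue lower), open points for the others and a vertical line at the list median. The medians were 0.28 for PPARA targets, 0.25 for proteasome subunits, 0.23 for amino acid breakdown and -0.17 for acute phase proteins.

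The tissue label was met by the markers of its main cell. The mean level of 9 hepatocyte markers lay between 10.90 and 11.26 in fast food mice and between 10.96 and 11.24 in chimpanzee mice. Of these markers 1, Hnf4a, was called lower (11.1%, against 0.359% of all genes). Of 14 Kupffer cell and macrophage markers, 1 was called higher (7.14%, against 1.67% of all genes) and 13 differences lay above 0. The median was 0.41 in all mice, 0.55 within batch 1 and 0.20 within batch 2. The mean level of these markers ran between 5.40 and 6.38 in fast food mice and between 4.70 and 5.91 in chimpanzee mice. The called marker was Cd68, a lysosomal protein of macrophages (0.57 ± 0.13, adjusted p = 0.0244), with 0.93 in batch 1 and 0.21 in batch 2, and it was lost without any of 4 mice. Clec4f, a marker of Kupffer cells, differed by 0.59 ± 0.23 (adjusted p = 0.205), and Adgre1, a macrophage surface receptor, by 0.15 ± 0.12 (adjusted p = 0.645), both named after their values were seen. Their part in the other differences was not tested. Among markers of sinusoidal endothelium, stellate cells, bile ducts, lymphocytes, neutrophils, red cells, fat cells and pancreatic acini 0 were called, with 4 of 12 endothelial and 3 of 12 stellate markers at an unadjusted p under 0.05. The 6 neutrophil markers all averaged under 4 on the log2 scale, as did 7 of 9 for lymphocytes and 3 of 4 for bile ducts.

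The other diets place these differences. The cafeteria and pellet values come from 1 fit that shares the fast food and chimpanzee mice, and so are set side by side and not tested against each other. Cyp4a14 averaged 9.43 in fast food, 8.40 in cafeteria, 3.26 in pellet and 6.19 in chimpanzee mice, so that pellet mice were the lowest. Cyp2b10 averaged 6.65, 6.92 and 7.07 in fast food, cafeteria and pellet mice and 4.40 in chimpanzee mice, which stood alone. Apoa4 had means of 9.45, 9.55, 9.78 and 10.81 in the same order, again with the chimpanzee mice apart. Cyp17a1 had 4.51, 5.36, 4.34 and 6.96, and Atf5 had 7.19, 7.29, 8.66 and 8.51, with pellet mice beside the chimpanzee mice for Atf5 but not for Cyp17a1. For Cyp17a1 the cafeteria mice had a median of 4.88, and their mouse 3 of batch 1 read 8.47, above every chimpanzee mouse. As further examples, fast food, pellet and chimpanzee means were 9.53, 9.79 and 8.78 for Agxt and 8.45, 8.74 and 7.38 for Tlcd2. There the pellet mice lay nearer to the fast food mice. The same means were 10.18, 9.19 and 9.18 for Ehhadh and 6.73, 5.09 and 5.23 for Krt23, with pellet mice nearer to the chimpanzee mice.

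Fast food and cafeteria mice were compared in the same fit to see what sets fast food apart from another human diet. Of 13385 genes 1 was called (0.00747%), while 684 had an unadjusted p under 0.05. This gene was Ang, which encodes the ribonuclease angiogenin. It had 8.02, 8.76 and 8.81 as lowest, median and highest value in fast food mice, and averaged 8.57 there, against 9.35 in cafeteria mice (-0.79 ± 0.12, adjusted p = 0.0229). This call was lost in 6 of 12 cases, without any of the 3 fast food mice of batch 1, fast food mouse 3 of batch 2, or cafeteria mice 2 and 3 of batch 1. The call was also lost with only the mice of the 2 diets in the fit. Ang was lower than in chimpanzee mice as well, whose values were 8.73, 9.24 and 9.37 (-0.55 ± 0.12, adjusted p = 0.0207, lost in 2 of 12). Rnase4, a ribonuclease gene that overlaps Ang in the RefSeq annotation, fell against the chimpanzee diet by 0.48 ± 0.13 (adjusted p = 0.0459, lost in 9 of 12), and its difference from cafeteria mice was -0.49 ± 0.13 (adjusted p = 0.408). Ang and Rnase4 were named after their values were seen.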

How the data were processed

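Total RNA of 24 mouse livers was labelled and hybridized to Affymetrix mouse genome arrays, 1 per mouse. The authors deposited 1 column of log2 values per mouse, made with rma (robust multichip average) of affy, a Bioconductor package; it corrects background, normalizes and summarizes probes per probe set. The affy version is not given in the sources used here, nor is which arrays were normalized together. Arrays as deposited differed in distribution. The study's detection calls were not used here, and 6 mice per diet limit the precision.

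Of 45101 probe sets, 64 controls were set aside, and 34945 of the others had 1 gene symbol in the platform annotation, 932 several and 9160 none. Entrez identifiers of 34741 matched RefSeq, and 0 symbols changed. Probe sets were kept if at least 6 of 24 arrays exceeded 3.147, the median value, and each gene was represented by its brightest probe set, which gave 13385 genes. All 24 mice entered 1 fit with diet and batch as terms (limma 3.58.1, R 4.3.3, lmFit and eBayes). Tests were two-sided. The procedure was tested on simulated data with known changes. Named genes were the 15 largest increases and decreases among the called genes with the same sign in both batches. Named were also the leading members of 40 lists covering 850 genes, of which 738 were tested, or those stated as picked later. The comparison, members and lists were chosen with earlier results of these data known. Litters, which the study distributed among the diets, are not in the labels, and p-values measure the spread between these mice only. Alternatives were filters, normalizations, covariates, array weights, batches taken alone, a replicate block, each mouse left out, and an analysis of variance after the study's methods. That analysis fitted diet and batch on the mice of the compared diets only, without Tukey comparisons and without the study's detection filter. Same-numbered mice were not a pair by label. Cafeteria mice were set against chimpanzee mice only by the means of the genes named. Brain arrays were not analysed here.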

Additional observations from a re-analysis of the deposited data

Results flagged for a closer look

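In 150 groups of 6 mice (75 genes described above in both diets), 13 held a mouse far from the other 5, where chance gives about 1 in 20 groups. In 10 of them it was mouse 2 of the fast food group in batch 2, whose array also had the lowest 90th percentile of its group, and it was low each time. Its log2 values were 8.29 for Eci1, 6.07 for Gstm6, 8.31 for Ivd, 6.86 for Mcee and 4.50 for Micu2. They were 7.80 for Ndufb3, 5.69 for Ppp1r3c, 6.83 for Psma1, 3.76 for Rad51b and 8.61 for Sc5d. In the other 3 it was mouse 3 of the fast food group in batch 1, with high values of 10.02 for Hnf4a, 10.16 for Khk and 5.75 for Lrrc28, genes that were lower in fast food mice. The part of array range in these values was not tested.

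Ang was the only called gene whose difference between the human diets passed adjustment, -0.79 for fast food minus cafeteria (limma adjusted p = 0.0229). This is a matter of the threshold, as Aqp8 differed by more, 1.01 ± 0.20, without passing it (limma adjusted p = 0.115).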

How the results depend on the processing

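The 64 called genes described above, not all 272, gave 2671 values under all alternatives. Of these values 2120 kept their call, 551 fell short of the threshold and 0 changed sign. The 272 calls of fast food against chimpanzee diet became 653 after cyclic loess (59.9% higher, 243 of the 272 kept), 567 after quantile normalization (61.4%, 244 kept) and 652 with the 90th percentile as a covariate (59.2%, 272 kept). They became 1476 with array weights, 519 without the 4 arrays of lowest 90th percentile, 34 with batch left out, 142 in batch 1 alone, 1 in batch 2 alone (Cyp4a14, 4.42) and 5 with the beta-actin covariate. An analysis of variance of the compared diets with batch, run without a filter on detection calls, gave 952 at an unadjusted p under 0.01 (72.4% higher). It gave 85 after Benjamini-Hochberg adjustment. Leaving out each mouse in turn gave 96 to 765 calls, and among mice of the other diets 444 without mouse 1 and 536 without mouse 3 of the cafeteria group in batch 2. Among mice of the compared diets the calls moved most without fast food mouse 1 of batch 1 (163), without fast food mice 1, 2 and 3 of batch 2 (99, 765 and 96), without chimpanzee mice 2 and 3 of batch 1 (156 and 171) and without chimpanzee mice 1 and 2 of batch 2 (121 and 140). The other filters, every probe set, the 12 mice alone and an intensity trend gave 227 to 319 calls. The list medians given in the results kept their sign after cyclic loess and quantile normalization. The causes were not tested.

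The single call of fast food against cafeteria diet became 8 after cyclic loess, 4 after quantile normalization, 6 over every probe set, 11 with the 90th percentile, 9 with array weights, 7 without the 4 arrays, 138 by the analysis of variance unadjusted and 0 adjusted. It was 0 with the 2 diets' mice alone, with batch left out, in batch 2 alone and with the beta-actin covariate, and 0 to 12 without single mice. In batch 1 alone, and without mouse 3 of the cafeteria group in batch 1, 1 gene was called, which was not Ang.

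With the replicate number as a block within batches (replicate block), 219 genes were called in the first comparison, 205 of them among the 272, and 0 in the second. Same-numbered mice had correlations of their deviations between -0.333 and 0.407, and 4 of 6 correlated best with their own number. No label pairs them and not every correlation was above 0.1, so that the mice were not taken as pairs, although some same-numbered mice did deviate together.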

Other observations

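Further gene families, picked after their values were seen and so given as values only, were compared between fast food and chimpanzee mice. Of 76 mitochondrial ribosomal proteins, 7 were called higher and 0 lower (9.21%, against 1.67% of all genes called higher), 73 differences lay above 0 and the median was 0.28 on the log2 scale. The called ones were Mrpl27, Mrpl35, Mrpl40, Mrps14, Mrps16, Mrps18c and Mrps22. Of 8 assembly factors of complex I, 3 were higher (37.5%), namely Ndufaf1, Ndufaf2 and Ndufaf7. Of 19 Sm and LSm proteins, which form the core of splicing particles, 5 were higher (26.3%), namely Lsm2, Lsm8, Snrpc, Snrpf and Snrpg. Cytosolic ribosomal proteins had 1 higher call of 43, Rpl14 (2.33%, near the 1.67% of all genes), and a median of -0.01. Of 14 peroxins, which build peroxisomes, Pex3 was higher (7.14%).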
